A study of Mus musculus with 30 samples.

Results

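Distal Menin peaks without UTX are places where Menin was found on chromatin away from gene starts and ends, with no UTX peak over them. The members were selected on peak positions and overlap: a Menin peak of vehicle-treated cells was taken when its summit lay over 3 kb from the annotated start and end of every RefSeq gene of any biotype, and when it shared no base pair with any UTX peak of cells treated with MI-503. On chromosomes 1 to 19 the rule gave 2119 peaks. They were 66.4% of the 3192 distal Menin peaks and 19.3% of all 10982 Menin peaks. Since the rule used where Menin and UTX peaks were called, their number and their lack of UTX are a description of the lists and not a finding.

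The cells were WT-MA9, mouse cells of acute myeloid leukaemia that stably express pMSCV-MLL-AF9-GFP, so vehicle and treated cells both carry the fusion from that vector. They received the vehicle DMSO or MI-503, an inhibitor that keeps Menin from binding MLL1, and were harvested 4 days later. Chromatin immunoprecipitation followed by sequencing gave 1 library for each of the 2 proteins in each of the 2 treatments, which are 4 of the 30 libraries the labels describe, and the other 26 were not analysed here. With 1 library per condition nothing below has a replicate check and no test was made, and the members are peaks of a single library, not replicates of a condition.

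Menin, the product of Men1, is a scaffold that joins the histone methyltransferases MLL1 and MLL2 to chromatin, where they methylate histone H3 lysine 4, mostly near promoters. In leukaemia with an MLL fusion, Menin is also needed to hold the fusion protein at its target genes. UTX, the product of Kdm6a, removes methyl groups from histone H3 lysine 27 and belongs to the complexes of MLL3 and MLL4, which are best known for their work at enhancers.

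Distance to gene ends is not distance to every promoter, because a long gene can hold further transcription starts. Of the 2041 members on chromosomes with promoter sequences from RefSeq, the summit of 63 was at most 1 kb from a start annotated inside a gene, and 40 touched a promoter window, which runs from 250 bases before a start to 50 bases after it. The windows of the 5 such members with the highest −log10 q are shown because they are the places where a member and a known regulatory sequence coincide. They are given 5′ to 3′ along the transcript from RefSeq (GRCm38.p6), in lower case. Capitals mark 4 motifs on either strand, CCAAT (bound by NF-Y), GGGCGG (bound by SP1), GAGGAA (bound by PU.1) and CCGGAAG (bound by ETS factors). The windows lie at chr3:50443564-50443863 (minus strand) for Slc7a11, chr2:15049263-15049562 (minus strand) for Nsun6, chr5:64230107-64230406 (plus strand) for Tbc1d1, chr7:38019503-38019802 (minus strand) for Uri1 and chr19:17356618-17356917 (minus strand) for Gcnt1.
Slc7a11: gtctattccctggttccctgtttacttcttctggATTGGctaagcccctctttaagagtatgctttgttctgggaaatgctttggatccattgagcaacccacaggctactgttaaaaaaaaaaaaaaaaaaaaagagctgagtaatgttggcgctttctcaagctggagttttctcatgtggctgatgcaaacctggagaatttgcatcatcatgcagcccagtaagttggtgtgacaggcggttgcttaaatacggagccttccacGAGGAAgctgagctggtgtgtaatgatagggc
Nsun6: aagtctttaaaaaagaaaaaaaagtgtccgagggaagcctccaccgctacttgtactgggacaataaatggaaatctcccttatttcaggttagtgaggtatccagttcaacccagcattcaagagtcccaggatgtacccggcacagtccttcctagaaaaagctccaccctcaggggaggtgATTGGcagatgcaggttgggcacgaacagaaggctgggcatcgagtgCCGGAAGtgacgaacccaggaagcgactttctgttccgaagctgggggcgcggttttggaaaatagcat
Tbc1d1: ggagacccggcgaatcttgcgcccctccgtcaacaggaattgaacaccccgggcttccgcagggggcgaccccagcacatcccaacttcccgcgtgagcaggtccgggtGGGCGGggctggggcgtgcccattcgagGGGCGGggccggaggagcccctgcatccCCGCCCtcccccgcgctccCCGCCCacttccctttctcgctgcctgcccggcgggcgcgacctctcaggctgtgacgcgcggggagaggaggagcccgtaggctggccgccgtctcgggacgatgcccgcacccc
Uri1: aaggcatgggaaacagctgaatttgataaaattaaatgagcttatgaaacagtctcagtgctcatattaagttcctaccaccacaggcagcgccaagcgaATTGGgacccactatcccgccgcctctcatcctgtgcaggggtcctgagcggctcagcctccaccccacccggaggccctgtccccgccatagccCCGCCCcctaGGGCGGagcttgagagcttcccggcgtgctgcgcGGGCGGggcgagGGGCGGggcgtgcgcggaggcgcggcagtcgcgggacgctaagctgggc
Gcnt1: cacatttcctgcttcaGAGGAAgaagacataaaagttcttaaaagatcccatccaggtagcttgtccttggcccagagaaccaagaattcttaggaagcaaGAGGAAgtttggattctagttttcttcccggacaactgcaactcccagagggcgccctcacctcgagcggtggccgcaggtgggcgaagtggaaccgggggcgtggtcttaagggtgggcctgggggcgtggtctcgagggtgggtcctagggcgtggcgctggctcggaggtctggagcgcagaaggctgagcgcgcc

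Slc7a11 encodes the cystine transporter subunit xCT. Its member (252 bp) lay wholly within the window, 95 bp from the start at the summit, with a Menin fold enrichment of 10.4, a −log10 q of 35.0 and 52 fragments over the summit. That window was the poorest of the 5 in CpG, with 0.271 of the CpG number its base content predicts, and it held 1 NF-Y and 1 PU.1 motif. The window of Nsun6, an RNA cytosine methyltransferase gene, held 1 NF-Y and 1 ETS motif at a CpG ratio of 0.585. The windows of Tbc1d1, which encodes a Rab GTPase-activating protein, and of Uri1, which encodes a prefoldin-family protein, each held 4 SP1 motifs, at CpG ratios of 0.808 and 0.781. The Uri1 window also held 1 NF-Y motif. Gcnt1, a glycosyltransferase gene for core 2 O-glycans, had 2 PU.1 motifs and none of the other 3 kinds. Motifs were sought over the whole window, not only under the member. The Uri1 NF-Y motif and the Gcnt1 PU.1 motif nearer the 5′ end lay outside their members. The nearest UTX MI-503 peak was 164122 bp away at Slc7a11 and 296 bp away at Uri1, so the 5 differ widely in how near UTX lay.

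The 40 members at promoter windows touched 45 windows of 40 genes. The median CpG ratio of those windows was 0.729, against 0.389 for all 31396 windows and 0.797 for the 251 windows touched by distal Menin peaks with UTX. A ratio of at least 0.6 was found in 64.4% of the members' windows (exact 95% interval 48.8 to 78.1%) and in 36.4% of all windows. The share was 78.9% for distal peaks with UTX, 70.0% for boundary peaks without UTX and 89.9% for boundary peaks with UTX. GGGCGG was present in 62.2% of the members' windows (46.5 to 76.2%) and in 36.0% of all windows. It was in 76.1% of those of distal peaks with UTX, 65.8% for boundary peaks without UTX and 76.2% for boundary peaks with UTX. CCAAT was in 44.4% against 37.3% of all windows, GAGGAA in 20.0% against 28.2%, and CCGGAAG in 17.8% against 9%, and the intervals of these 3 include the share of all windows. AGGNGGC, a piece of the CTCF motif, was in 51.1% (35.8 to 66.3%) against 29.4% of all windows. The other classes of Menin peak lay within that interval, at 44.6% for distal peaks with UTX, 39.2% for boundary peaks without UTX and 43.6% for boundary peaks with UTX. The RUNX motif TGTGGT was in 17.8% of the members' windows and in 16.7% of all windows. The AP-1 motif TGANTCA was in 8.89% of the members' windows and in 7.84% of all windows. The GATA motif AGATAA was found in 4.44% of the members' windows, below the 11.2% of all windows but with an interval that includes it. The E-box CACGTG was in 2.22% of them and in 7.14% of all windows. All 9 motifs were sought on both strands. A match is a description of the letters in a window. The intervals cover counting error only, and windows of 1 gene can overlap.

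Members were weak Menin peaks. Fold enrichment (the pileup at the summit over the local background, each plus 1) and −log10 q are the authors' own values and serve here to describe, rank and filter peaks of the Menin DMSO list. The median fold was 4.57 in the members, 6.11 in distal peaks with UTX, 4.73 in peaks at gene boundaries without UTX and 7.27 in boundary peaks with UTX. The median −log10 q was 6.15, 13.6, 6.78 and 18.7 in the same order. A −log10 q under 5 was held by 34.2% of the members and by 6.99% of distal peaks with UTX, and one of at least 20 by 6.84% and 33.2%. The members thus resembled boundary peaks without UTX more than distal peaks with UTX, whatever their place relative to genes.

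The number of fragments behind each peak restates these values and is not a second measurement. The deposited fold and p-value together gave a whole number of fragments over each summit. Members had 11 to 175 fragments with a median of 20, against medians of 32 for distal peaks with UTX, 21 for boundary peaks without UTX and 37 for boundary peaks with UTX. A member with 20 fragments rests on few molecules, so the height of any single weak member is imprecise. Members were also narrow, with a median width of 202 bp against 275 bp for distal peaks with UTX. The local background, which MACS2 takes from the input library, had a median of 3.33 in members and 4.08 in distal peaks with UTX.

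**Figure D1:**
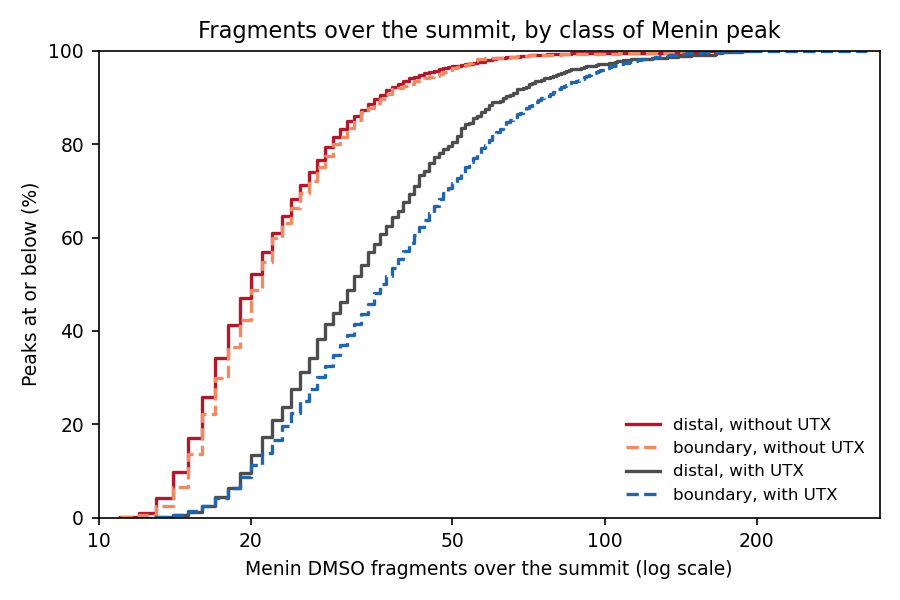
Cumulative share of Menin DMSO peaks (vertical axis, percent) against the number of fragments over the summit (horizontal axis, log scale), 1 line for each of 4 classes, split by place (distal or at a gene boundary) and by UTX MI-503 overlap. The lines of both classes without UTX lie close together, with medians of 20 and 21 fragments, to the left of both classes with UTX, with medians of 32 and 37.

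The lack of UTX went with both the strength and the place of a Menin peak. Among all Menin peaks, 33.5% had no UTX MI-503 peak over them. The share was 66.4% (64.7 to 68.0%) for distal peaks and 20.0% (19.1 to 20.9%) for boundary peaks. Among distal peaks it fell from 90.6% of 800 peaks with a −log10 q under 5 to 73.4% at 5 to 10, 54.3% at 10 to 20, 31.3% at 20 to 50 and 19.4% of 98 peaks at 50 or more. Among boundary peaks of the same strength it was 56.2, 33.3, 15.9, 6 and 1.40%. Distal peaks were without UTX more often than boundary peaks in each of the 5 ranges, and in each the intervals did not overlap. Place and UTX overlap both enter the rule, so this is a description of where the members come from.

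**Figure D2:**
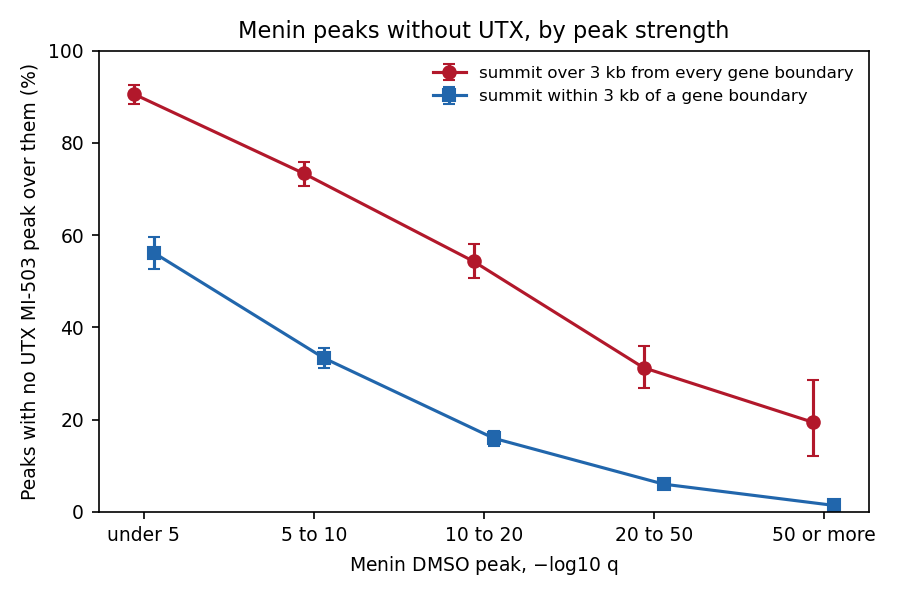
Share of Menin DMSO peaks with no UTX MI-503 peak over them (vertical axis, percent) by the −log10 q of the Menin peak (horizontal axis, 5 ranges), for distal and boundary peaks, with exact 95% intervals for counting error. Both lines fall with strength, from 90.6 to 19.4% for distal peaks and from 56.2 to 1.40% for boundary peaks.

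The share without UTX also rose with distance from the nearest gene boundary. It was 15.1% of Menin peaks within 1 kb of a boundary and 49.6% of those at 1 to 3 kb. Past the 3 kb limit it was 58.9% at 3 to 10 kb, 71.1% at 10 to 50 kb, 80.0% (160 of 200) at 50 to 100 kb and 85.5% (71 of 83) beyond 100 kb. The median member summit lay 12615 bp from a boundary, with quartiles of 6307 and 27094 bp, and the median distal peak with UTX lay 8627 bp away. By chromosome, members were 55.2% of the distal Menin peaks on chromosome 11 and 74.1% on chromosome 16, with the other chromosomes in between. Chromosome 2 held the most members, 188.

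The members closest to the distance limit were assigned to Prok2 (summit 3001 bp from the nearest boundary of any gene), Golga7 (3017 bp), Vmn1r3 (3019 bp), Kat8 (3020 bp) and Prr36 (3029 bp). Peaks without UTX that just missed the limit were assigned to Pnrc2 (2980 bp), Mef2a (2978 bp), Dusp7 (2968 bp), Celf4 (2966 bp) and Crybb1 (2959 bp). Folds were 3.74 to 5.58 for these members and 3.94 to 8.41 for the peaks that missed the limit. The members closest to a UTX peak without touching it were assigned to St3gal1 (3 bp), Septin5 (21 bp), Slc39a11 (24 bp), Rara (29 bp) and Mrps18a (45 bp). Distal peaks kept out by the smallest shared stretch were assigned to Stmn1 (1 bp shared), Plcb2 (16 bp), Actb (22 bp), Sfi1 (23 bp) and Thap1 (25 bp). The St3gal1 member and the Stmn1 peak, which is no member, had the same fold of 3.90 and −log10 q of 5.46.

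Few members lay just beside a UTX peak. The gap to the nearest UTX MI-503 peak was under 100 bp for 19 members, at most 1 kb for 79 (3.73%, 2.96 to 4.62%) and at most 10 kb for 429 (20.2%). Its median was 41162 bp, with quartiles of 12894 and 115306 bp. Boundary Menin peaks without UTX were closer, with a median gap of 17506 bp and 19% within 1 kb. So for most members the absence of overlap did not hang on a few base pairs of peak edge. In the UTX DMSO list, which holds 217 peaks, no peak overlapped a member, and 18 members lay within 10 kb of one. Such overlap was rare in every class. It was found for 1.69% of all 10982 Menin DMSO peaks, 1.58% of distal peaks with UTX and 0.193% of boundary peaks without UTX. The rule nearly fixes the zero of the members, since 204 of the 217 were themselves overlapped by UTX MI-503 peaks. None of the 8 Menin MI-503 peaks overlapped a member, and the closest was 11241 bp from a member assigned to Dpp9. No member was therefore found again as a Menin peak in MI-503, where the whole list was nearly empty. Of all 10982 Menin DMSO peaks, 1 was found again, so the zero is not particular to the members.

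**Figure D3:**
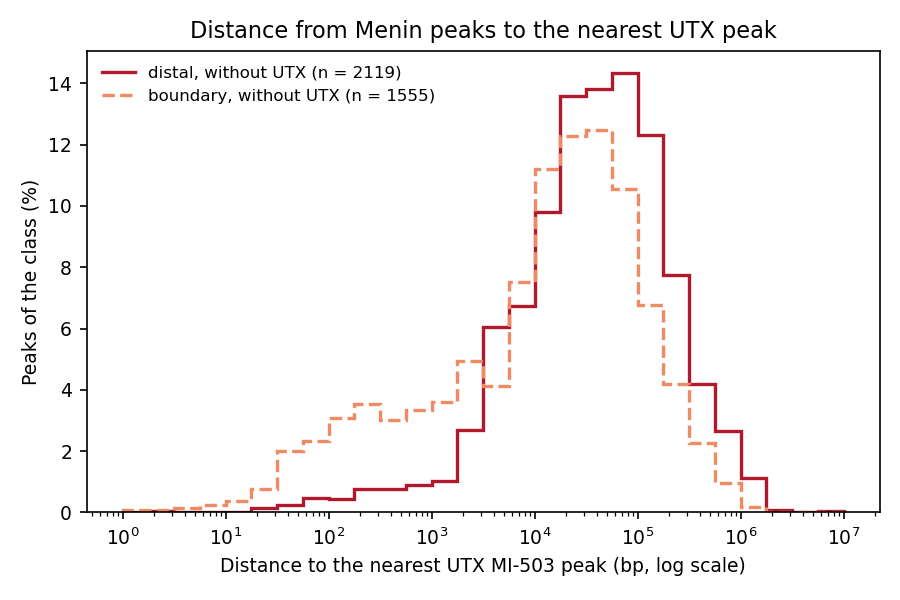
Share of the class (vertical axis, percent) by distance to the nearest UTX MI-503 peak (horizontal axis, bp, log scale) for the 2119 members and the 1555 boundary Menin peaks without UTX. Most members lie beyond 10 kb, with a median of 41162 bp, and boundary peaks have a longer tail below 1 kb and a median of 17506 bp.

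Distal peaks with and without UTX differed at transcription starts inside genes, which the rule did not use. A RefSeq start lay at most 1 kb from the summit in 63 of 2041 members (3.09%, 2.38 to 3.93%) and in 254 of 1045 distal peaks with UTX (24.3%, 21.7 to 27.0%). Within 250 bp the shares were 2.01% and 19.9%. The gap held at like strength. In the ranges of −log10 q from under 5 up to 50, the share was 2.43, 3.04, 4.21 and 4.10% in members and 20.5, 21.5, 22.6 and 27.0% in distal peaks with UTX. At 50 or more it was 0 of 18 members, an interval that reaches 18.5%, and 36.8% of 76 distal peaks with UTX. The intervals of the classes did not overlap in any of the 5 ranges.

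**Figure D4:**
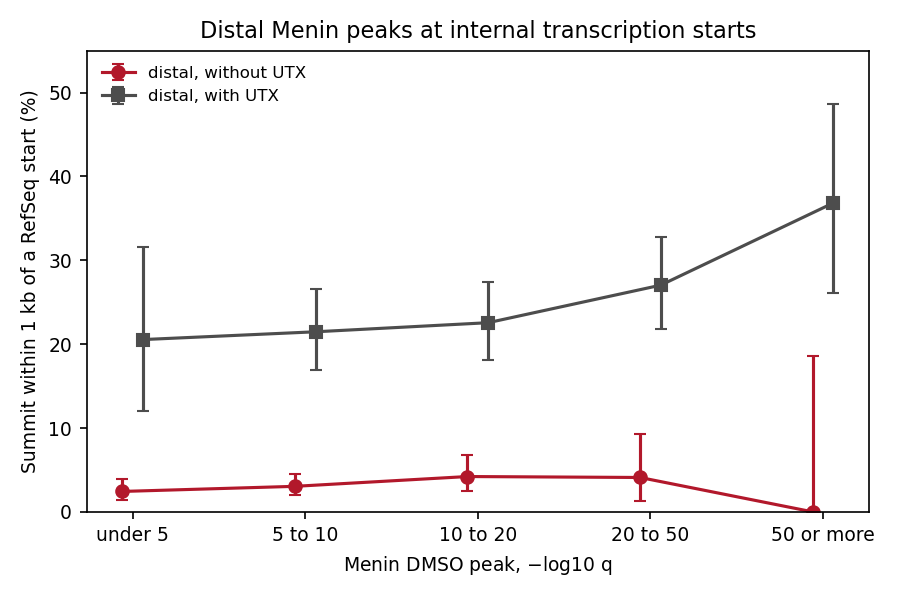
Share of distal Menin DMSO peaks whose summit lies within 1 kb of an annotated RefSeq start (vertical axis, percent) by the −log10 q of the peak (horizontal axis, 5 ranges), with exact 95% intervals for counting error. Members stay between 0 and 4.21%, and distal peaks with UTX lie between 20.5 and 36.8%.

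Among the members at such starts were several genes with known roles. Cbx7, a Polycomb subunit, had a member 135 bp from a start, with a fold of 7.09 and 24 fragments. Adar, an RNA-editing deaminase, had one 7 bp from a start at 4.68-fold, and Dgkz, a diacylglycerol kinase, one at 179 bp and 6.79-fold. Impdh1, an enzyme of guanine nucleotide synthesis, had one at 96 bp and 7.04-fold, and Rpp40, a subunit of ribonuclease P, one at 18 bp and 6.68-fold. Smarcal1, a DNA-annealing helicase, had one at 91 bp and 5.63-fold. At Sertad2 a UTX MI-503 peak lay 93 bp from the member, at Catsperg1 230 bp and at Arvcf 409 bp, while at Ccdc174 and Smarcal1 the nearest lay 193429 and 127802 bp away. The members at starts thus include some on the flank of a UTX peak and some far from any.

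A summit inside an annotated gene of any biotype was found for 1298 members (61.3%, 59.1 to 63.3%), close to the 59.2% of all Menin DMSO peaks and the 63.5% of boundary peaks without UTX. The share was 69.9% (67.1 to 72.6%) of distal peaks with UTX. Of the members, 1166 lay inside protein-coding genes, 132 inside genes of other biotypes alone and 821 in no annotated gene. The nearest boundary belonged to a protein-coding gene in 54.1% of members and 64.3% of distal peaks with UTX, to a long non-coding RNA in 30.5 and 23.6%, to a pseudogene in 10.8 and 8.20% and to a microRNA in 1.51 and 2.05%. A Menin peak at a gene boundary was found within 10 kb of 8.31% of members (7.17 to 9.56%) and of 17.3% of distal peaks with UTX (15.1 to 19.7%), and within 50 kb of 34.9 and 55.2%. Members also lay farther from any boundary, with 41.2% of them and 56.7% of distal peaks with UTX at 3 to 10 kb, and the part of that distance in the difference was not tested. Another member lay within 10 kb of 189 members (8.92%).

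Each member was assigned to the protein-coding genes that hold it or else to the nearest one. That gave 1782 of 20665 protein-coding genes (8.62%), of which 1025 (4.96%) held a member. Of the 1782 genes, 1509 had 1 member, 222 had 2 and 51 had 3 or more. The genes that held a member were long, with a median of 82.5 kb against 17.5 kb for all protein-coding genes, and a long gene has more room for a member. A Menin summit within 1 kb of a gene's own start or end was found for 27.3% (24.6 to 30.2%) of the 1025 genes and for 32.4% of all protein-coding genes. For UTX in MI-503 the shares were 37.0% (34.0 to 40.0%) and 38.0%. Among genes of at least 50 kb, 24.7% (21.5 to 28.1%) of 693 genes that held a member had a Menin boundary peak, against 31.0% of all 4725 such genes. Of the 607 genes that held a distal Menin peak with UTX, 30.8% (27.2 to 34.6%) had a Menin boundary peak. Most genes with a member inside thus carried no Menin peak at either end, and the same was so for most protein-coding genes.

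Gse1 had the most members. It encodes a coiled-coil protein found with the LSD1 and CoREST repressor complex. The gene (chromosome 8, 120228501 to 120581383, 352.9 kb) held 12 Menin DMSO peaks, of which 10 were members, spread over 325.8 kb. Counted from the gene's first annotated base, the members lay at 9.80, 45.1, 48.0, 136.1, 140.6, 180.5, 217.0, 301.0, 328.0 and 335.6 kb. The member at 48.0 kb (120276302 to 120276736) was the highest, with a fold of 11.9 and a −log10 q of 35.4, and the one at 217.0 kb (120445300 to 120445641) followed with 9.92 and 31.4. The other 8 had folds between 3.74 and 6.50. The 9 UTX MI-503 peaks inside Gse1 lay elsewhere, 6 of them between 307.4 and 310.2 kb, where both Menin peaks with UTX were. Neither Menin nor UTX had a summit within 1 kb of the start or end of Gse1.

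**Figure D5:**
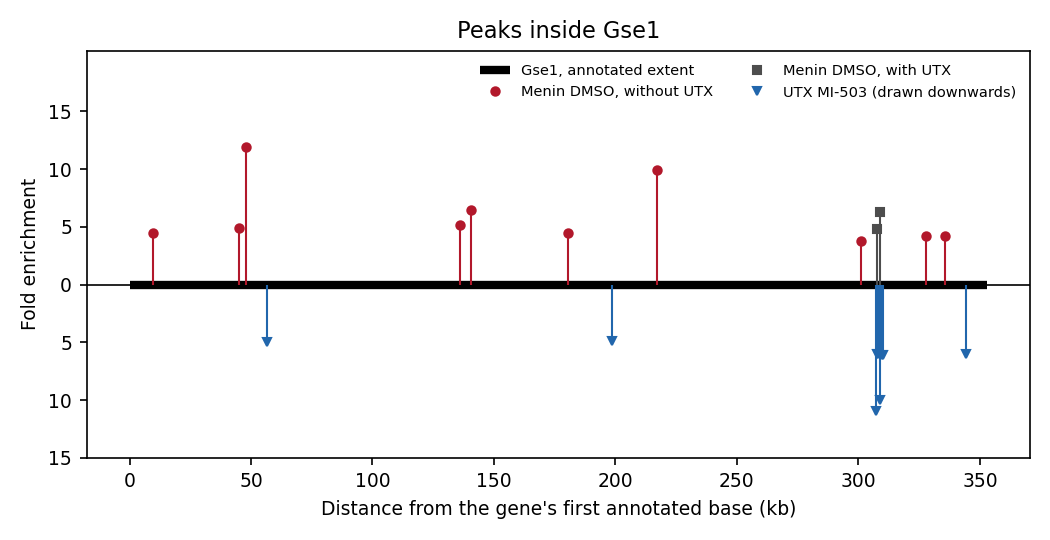
Peaks inside Gse1 by distance from its first annotated base (horizontal axis, kb) and fold enrichment (vertical axis), with Menin DMSO peaks upwards and UTX MI-503 peaks downwards; folds of separate lists are not comparable in height. The 10 members are spread along 325.8 kb, and 6 of the 9 UTX peaks stand together with the 2 Menin peaks with UTX near 308 kb.

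Sfi1 and Vmn1r2 came next, and their peaks stood on ground rich in input. The 7 members in Sfi1, which encodes a centrosomal protein, had local backgrounds 33.5 to 40.5 times the lowest of the list, 150 to 175 fragments over the summit and folds of 1.61 to 2.22. They include the lowest fold of all members. Sfi1 held 23 Menin DMSO peaks in all, 9 of them with UTX. The 6 members assigned to the vomeronasal receptor gene Vmn1r2 lay in no protein-coding gene, up to 119.9 kb from it, within 30.1 kb of chromosome 4 (3052182 to 3082309). Their backgrounds were 4.59 to 13.3 times the lowest and their folds 1.97 to 3.06. A background at least 3 times the lowest was found under 97 members (4.58%) and under 6.62% of distal peaks with UTX. The part of the high input in these peaks was not tested.

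Under the members of the other genes with at least 4, the background was at most 2.79 times the lowest. Map4k4, a kinase gene, had 5 members of 3.75- to 6.50-fold, 1 of them inside it. Zmiz1, which encodes a transcriptional coactivator of the PIAS family, had 5 members of 3.74- to 5.60-fold, 4 of them inside. There were 4 each for Atp8b4, Dsg2, Epn2, Fndc3b, Sox5, Specc1, St3gal1, Trps1 and Zfp516. Trps1 and Sox5, both transcription factor genes, and Specc1 held all 4 of theirs, with no Menin peak with UTX and no UTX MI-503 peak inside. The 4 members near Dsg2, a desmosomal cadherin gene, lay within 8.37 kb of each other, at the lowest background of the list and folds of 4.80 to 8.09.

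The 20 members with the highest −log10 q, chosen for that height, had folds of 10.9 to 39.0 and 56 to 169 fragments over the summit. Of these, 12 lay inside a protein-coding gene, against 1166 of all 2119 members. None of those off chromosome 18 was within 1 kb of a RefSeq start. For the member beside Pura, on chromosome 18, that distance was not measured, as the chromosome had no promoter windows. The nearest UTX MI-503 peak was 5271 to 711052 bp away, with a median of 28137 bp. The highest background among them was 2.79 times the lowest. The gene assigned had a Menin boundary peak in 12 of the 20 and a UTX MI-503 boundary peak in 11, and 7 had neither. The shares were 32.4 and 38.0% of all protein-coding genes, and 27.3 and 37.0% of genes that held a member. Some of the 20 were named by nearness alone, and no share was taken over all genes with an assigned member, so a like baseline is missing.

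First among them was a peak beside Pura, which encodes the single-stranded nucleic acid binding protein Pur-alpha. It spanned 730 bp (chromosome 18, 36274557 to 36275286), 5741 bp from the gene's boundary. It had a fold of 39.0, a −log10 q of 212.1 and 169 fragments over the summit (exact Poisson 95% interval 144.5 to 196.5, counting error only). It ranked 6 in the whole Menin DMSO list. Pura itself had a Menin and a UTX MI-503 peak at its boundary, and the UTX peak nearest to the member was 5271 bp away.

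The next members lay inside genes. The Chst15 member (chromosome 7, 132242757 to 132243112), in a chondroitin sulphotransferase gene, reached 20.8-fold with 114 fragments. In Borcs5, a gene of the BORC complex that positions lysosomes, the member (chromosome 6, 134700850 to 134701177) reached 22.3-fold with 106 fragments. Neither gene had a Menin or UTX boundary peak. In Xrcc4, the DNA ligase IV partner in end joining, the member (chromosome 13, 89889129 to 89889425) reached 22.3-fold with 94 fragments. It lay 40367 bp from the gene's nearest boundary, and the gene had both boundary peaks. The Fhad1 member spanned 880 bp at 14.0-fold. A member 117153 bp from Map2k6, the gene of a p38-activating kinase, reached 16.9-fold, and those inside Cog6, a Golgi tethering subunit gene, and Smco2 both reached 18.3-fold.

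The member 5914 bp from Ptpn11, the gene of the phosphatase SHP2, spanned 675 bp and reached 15.6-fold with 78 fragments. The one inside Sos1, a RAS exchange factor gene, reached 14.9-fold with 75 fragments. Cab39, an LKB1 partner gene, had a member at 10.9-fold and 81 fragments, and Dock4, a RAC1 exchange factor gene, one at 16.5-fold and 59 fragments. The remaining 8 were assigned to Lrrc40, Nkain1, Katnal1, Sgcz, Brd3os, Dlg4, Nnt and Heatr1, at 11.7- to 18.9-fold. Micu2, a regulator of mitochondrial calcium uptake, had the widest member of all, 906 bp at 12-fold, and Ak5 one of 791 bp at 6.70-fold. Wide members were thus few, against a median of 202 bp.

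Of the 5 members farthest from any gene boundary, 3 lay inside a protein-coding gene. The Rbfox1 member (chromosome 16, 6686263 to 6686497), in a neuronal splicing factor gene, was 579663 bp from the nearest boundary, with a fold of 8.86 and 35 fragments. The Agbl4 member (383245 bp) had a fold of 4.64, and one outside Cntnap2, 472324 bp from it, had 4.50. The member assigned to Snx16 was 279470 bp from any boundary and 938700 bp from that gene, with a fold of 6.84 on a background 3.14 times the lowest. The fifth, in Tmem132d, was 266486 bp away at 4.24-fold.

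Genes of leukaemia and blood biology were read against the background of 8.62% of protein-coding genes with an assigned member. Of 30 target genes of MLL fusions, 8 (26.7%, 12.3 to 45.9%) had a member inside them or nearest to them. Their 9 members had a median fold of 5.70, against 4.57 for all members. The receptor tyrosine kinase gene Flt3 held one (chromosome 5, 147389055 to 147389328) at 10.2-fold and 44 fragments, and the transcription factor gene Myb held one (chromosome 10, 21131113 to 21131352) at 5.70-fold and 21 fragments. Flt3 and Myb had a UTX MI-503 boundary peak and no Menin boundary peak. Gnaq, a G protein subunit gene, had one 10117 bp away at 8.55-fold and one inside at 4.14-fold. Runx2 held one at 3.43-fold. Those assigned to Meis1 (170864 bp away, 4.20-fold), Runx1 (326882 bp, 3.58-fold) and Zeb2 (1253711 bp, 5.81-fold) were so far that nearness names the gene and little more. No Hoxa gene of the list had one.

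Counted inside gene bodies alone, 4 of the 30 MLL-fusion targets held a member, against 4.96% of all protein-coding genes. Counted only to 50 kb, 5 had one, against 7.49%, a limit added after the values were seen. Of 28 haematopoietic transcription factor genes, 6 (21.4%, 8.30 to 41.0%) had a member, at a median fold of 4.54. Erg had 2 at 4.59- and 5.09-fold, Ikzf1 held 1 at 5.37-fold, Zfpm1 held 1 at 4.54-fold, Irf8 held 1 at 4.01-fold and Ets1 held 1 at 3.65-fold. The one assigned to Klf4 was 283592 bp away. The highest of these 7 was thus the Ikzf1 member, close to the upper quartile of all members, 5.47-fold.

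Of 29 myeloid surface and effector genes, 5 (17.2%, 5.85 to 35.8%) had a member nearest to them and none held one. The myeloperoxidase gene Mpo had one 3507 bp away (chromosome 11, 87790167 to 87790377) at 7.74-fold and 32 fragments. The lactoferrin gene Ltf had one 3698 bp away at 4.69-fold. Those of the receptor genes Csf2ra (37110 bp) and Csf3r (130027 bp) and of Cd34 (59017 bp) had folds of 4.58, 4.73 and 4.64. Of 17 cell cycle inhibitor and tumour suppressor genes, 3 (17.6%, 3.80 to 43.4%) had a member. Nf1, a RAS GTPase-activating protein gene, held one at 5.05-fold, and Btg1 had 2 at 4.82- and 6.02-fold at least 72607 bp away.

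Growth factor and cytokine signalling genes with a member numbered 12 of 30 (40.0%, 22.7 to 59.4%), at a median fold of 4.64. Inside gene bodies there were 3 of 30, against 4.96% of all protein-coding genes, and to 50 kb there were 8, against 7.49%. By comparison, 5 of 28 haematopoietic factors and 4 of 30 MLL-fusion targets held a member. Tgfbr2, a TGF-beta receptor gene, held one at 7.02-fold and had another 3121 bp away at 5.15-fold. Stat5b held 2 at 3.87- and 3.88-fold. The kinase gene Jak2 had 2, 23520 and 49999 bp away, at 6.07- and 5.51-fold. Genes of inhibitors of these pathways with a member were Smad7 (3917 bp, 6.45-fold), Socs1 (14773 bp, 5.25-fold), Cish (7321 bp, 4.02-fold), Dusp6 (86628 bp, 4.25-fold) and Spry2 (53302 bp, 4.64-fold). Others were Pim1 (3407 bp, 4.29-fold), Smad3 (92552 bp, 5.21-fold) and Pik3r1 (271629 bp, 4.35-fold). None of the 21 genes for MLL complex subunits and partners had a member (interval 0 to 16.1%), and 1 of 18 housekeeping genes had one (5.56%, 0.141 to 27.3%). Both intervals include 8.62%. Genes differ in length and in the room around them, and the part of that room in these counts was not tested. The median length was 56.9 kb in the MLL-fusion list, 38.3 kb in the signalling list and 30.8 kb in the MLL complex list, against 17.5 kb for all protein-coding genes. It was 12.8 kb in the haematopoietic factor list, 10.6 kb in the myeloid list, 9.74 kb in the cell cycle list and 6.64 kb in the housekeeping list. Of the lists with a share above 8.62%, the intervals of the MLL-fusion and signalling lists lay above it. Those of the haematopoietic factor, myeloid and cell cycle lists included it. All these intervals are for nearest genes at any distance. None was computed for the smaller counts in gene bodies or to 50 kb, so they do not extend to those counts.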

How the data were processed

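Peak lists of 4 chromatin immunoprecipitation libraries of WT-MA9 cells were used. Peaks were called with MACS2 on mm10, per the submitters' processing notes, and peak names in the deposited lists pair both Menin lists with 1 vehicle input and both UTX lists with another. No aligner, read filter, q threshold or dose of MI-503 is stated in the sources used. The deposited columns hold a score, the fold (the ratio of pileup to background, each plus 1) and −log10 of the p-value and of the q-value at the summit. Positions are printed from 1.

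The pileup and background behind each fold and p-value were solved for, and 1 whole number of fragments, within 0.01, was found for all 10982 peaks. Total depth is unknown. Distances were taken to starts and ends pooled, since the table of RefSeq genes (GRCm38.p6, which mm10 is built on) gives no strand. Starts inside genes came from 31396 RefSeq promoter windows, none on chromosome 18, an addition made after the data were seen. Overlap meant at least 1 shared bp. Intervals are exact (Clopper-Pearson, 95%) and cover counting error alone, since neighbouring peaks are not independent. Peak lists measure no expression, so the labelled cell type was not checked against markers. Peaks off chromosomes 1 to 19 (213 Menin DMSO peaks) were left out. Sequence features planned for 300 bp around each summit were not run, as no genome was used here, and were read from promoter windows in their place.

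The members and the 7 gene lists were chosen with earlier results of these data known. Of 180 listed genes, 173 were in the table. Genes named were the 20 members of highest −log10 q, the 10 of highest fold, the 5 on each side of the distance limit, closest to UTX, farthest from a boundary and widest, the 10 genes with the most members (ties beyond these are named too) and every listed gene with a member, of which some are not reported here. Those of highest background and those at RefSeq starts were added after their values were seen. Genes with predicted symbols were counted and not named. Distance, overlap and interval code was tested on simulated data. Python 3.11.15, numpy 2.4.6, pandas 2.3.3, scipy 1.17.1 and matplotlib 3.10.9 were used.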

Additional observations from a re-analysis of the deposited data

How the results depend on the processing

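Each of 19 results was recomputed under 12 alternatives, 1 of them added after seeing the data, and the gene counts also under a 50 kb limit on the nearest gene, added likewise. Of 236 recomputed values, 189 moved by less than the counting error of the value or, for counts, by at most 1.5 times, and 47 moved more. Counts at just that limit were signalling genes, 8 at the q limit and within 50 kb, cell cycle genes, 2 at the q limit and over 5 kb, and haematopoietic factors, 4 over 10 kb and 9 with protein-coding boundaries. The number of members was 1394 with −log10 q of at least 5 and 1246 over 10 kb from a boundary. The share of distal peaks without UTX was 58.3% at −log10 q of at least 5, 62.6% at a fold of at least 4, 62.1, 69.0 and 72.8% over 1, 5 and 10 kb, 64.1% with protein-coding boundaries only, 64.6% when UTX within 0.5 kb counted as overlap, 69.7% with UTX peaks of −log10 q of at least 5 only, and 71.7% when peaks within 3 kb of any RefSeq start were left out too (added). Median fold was 5.09 and 4.92, median width 218 and 210 bp, and the share with another member within 10 kb 6.24 and 5.83% at the q and fold limits. Median boundary distance was 9117, 16264.5 and 23680 bp over 1, 5 and 10 kb, and 22651 bp with protein-coding boundaries. The share with UTX within 1 kb was 5.26 and 2.73% over 1 and 10 kb, 1.07% with UTX within 0.5 kb as overlap and 5.12% when overlap needed 50% of the shorter peak. The share at RefSeq starts was 4.08% over 1 kb, 5.88% with protein-coding boundaries and 0 by construction in the added alternative. UTX DMSO peaks overlapped 2 members over 1 kb and 3 with protein-coding boundaries. Genes with a member numbered 1067 over 10 kb. MLL-fusion targets with a member numbered 5 at the q limit and 5 within 50 kb (added), and haematopoietic factors 3 at the q limit. Myeloid genes numbered 8, 3 and 0 over 1, 5 and 10 kb and 3 within 50 kb (added). Cell cycle genes numbered 1 over 10 kb and 1 within 50 kb (added), signalling genes 7 over 10 kb, and MLL complex genes 2 over 1 kb. Housekeeping genes numbered 2 over 1 kb, with protein-coding boundaries and when overlap needed 50%, and 0 over 5 and 10 kb. The cause of these moves was not tested. No paired analysis was possible because each condition had 1 library.

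The members rest on 1 library for each protein and treatment. Menin was mapped in DMSO and UTX in MI-503, so a member is a comparison across treatments as well as proteins. Both lists hold only peaks past the authors' threshold, so a missing UTX peak says that none was called, and weaker UTX signal could not be read. Of the members, 34.2% had a −log10 q under 5, near the low end of the list.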

Other observations

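Some members stood in groups that crossed several genes. On chromosome 7, 4 members had summits between 16250835 and 16338116, a stretch of 87.3 kb, and were assigned to Bbc3, the gene of the apoptosis inducer PUMA, to C5ar1, the complement C5a receptor gene, to Ccdc9 and to Sae1, a SUMO-activating enzyme gene. Their folds were 3.99 to 6.66, on backgrounds of at least 1.40 times the lowest. On chromosome 13, 4 members between 54972998 and 55040219 were assigned to Uimc1, a DNA damage response gene, and Unc5a, a netrin receptor gene, with folds of 3.87 to 8.58. These stretches were picked by their number of members after the values were seen.

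Further members at starts inside genes are named here after their values were seen. Prdm1, which encodes the repressor Blimp-1, had a member 259 bp from a start with 13 fragments over the summit and a fold of 3.42, and a UTX MI-503 peak 197 bp from it. Csk, the gene of a kinase that restrains SRC kinases, had one 48 bp from a start at 5.09-fold, 4612 bp from UTX. Bcl9, a coactivator gene of the WNT pathway, had one at 4.11-fold with UTX 135 bp away, and Cdyl, a chromodomain gene, one at 5.11-fold with UTX 161 bp away.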
